A study of Mus musculus with 24 samples.

Results

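Transcripts were measured in MS03 cells after 24 h with GSK215, a PROTAC directed at focal adhesion kinase (FAK), at 0.1 µM, and in cells given the DMSO vehicle. The comparison was defined by treatment alone: it took the 3 libraries of GSK215 and the 3 libraries of DMSO, 6 of the 24 libraries of the series, and covered every gene counted, of which 16070 had enough counts to be tested. MS03 is an immortalized murine *Nf2*-/- Schwann cell (SC) line, made by infecting cells of an *Nf2* flox/flox mouse with Cre, and all groups, DMSO included, carry the same deletion. It is a single line grown in serum-containing medium, so the values describe these cells and not SCs at large. The other groups of the series, 3 libraries each, received defactinib, VS-4718, GSK2256098 or IN10018 (1 µM), PROTAC FAK degrader 1 (PROTAC-3, 1 µM) or BSJ-04-0146 (0.1 µM). Only BSJ-04-0146, a PROTAC against the same kinase, matched GSK215 in both dose and time, and it served as the second reference. The replicates are labelled biological, but nothing says that they came from separate cultures, so *P* values measure the spread between these libraries.

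FAK, the product of *Ptk2*, is a tyrosine kinase and scaffold that joins integrin adhesions to growth signals. A PROTAC links a ligand of a target protein to an E3 ubiquitin ligase, so that the protein is ubiquitinated and removed by the proteasome. An inhibitor leaves the protein in place. Because degradation acts after translation, the level of *Ptk2* mRNA is no measure of how much FAK protein was lost, and protein was not measured in these libraries. SCs are the glia of peripheral nerve. The transcription factor SOX10 maintains their identity and drives myelin genes, and *Nf2* encodes merlin, a membrane-linked suppressor of growth whose loss gives rise to schwannoma.

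Total counts were 14472462, 17750112 and 19331704 in the GSK215 libraries and 22952048, 27449516 and 25126532 in the DMSO libraries, so the treated libraries were all shallower than the controls. Mitochondrially encoded genes took 3.83 to 4.25% of counts with GSK215 and 3.03 to 3.06% with DMSO. Values below are CPM, counts per 1000000 counted reads, adjusted by TMM factors that correct for differences in library composition, and fold changes are on the log2 scale. A signed value in parentheses after a gene is its log2 fold change from DMSO, a difference and not a level. The line expressed its defining markers at low levels: 5 SC markers (*Sox10*, *S100b*, *Erbb3*, *Ngfr* and *Cdh19*) summed to 34.7 to 36.3 CPM in DMSO. All 5 endothelial and all 5 neuronal markers were too low to test, with sums of at most 0.790 and 0.214 CPM in any of the 6 libraries. Of 8 macrophage markers, *C1qa*, *Tyrobp* and *Adgre1* were at 0 counts in all 6 libraries, and of 5 melanocyte markers *Tyr*, *Tyrp1* and *Mlana* were at 0. DMSO replicate 2 stood apart in small non-coding RNAs. It held more than 80% of the summed signal of 9 genes called lower with GSK215, among them the signal recognition particle RNA *Rn7s1* (93 counts in that library and 0 in the other 5) and the Y RNA *Rny3* (178 counts, and 0 to 2 in the other 5). No other library held that share of any gene called, and these 9 genes are given no further weight.

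GSK215 changed the transcript level of 8786 of 16070 genes at an adjusted *P* under 0.05, or 54.7%. The calls were evenly split by direction, with 4407 genes higher (27.4%) and 4379 lower (27.2%), and the median log2 fold change over all genes was 0.02. The split depends on the scaling. With library totals in place of TMM factors the median of all genes moved to 0.14, and 6190 genes were called higher and 2867 lower. Most changes were small, with a median size of 0.38 among the genes called. Large changes were mostly rises: of 1144 genes that also changed at least 2-fold, 914 were higher and 230 lower, and of 197 that changed at least 4-fold, 160 were higher. Since 54.7% of all genes passed the test, a share of called members near that value in any gene list equals the background.

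**Figure D1:**
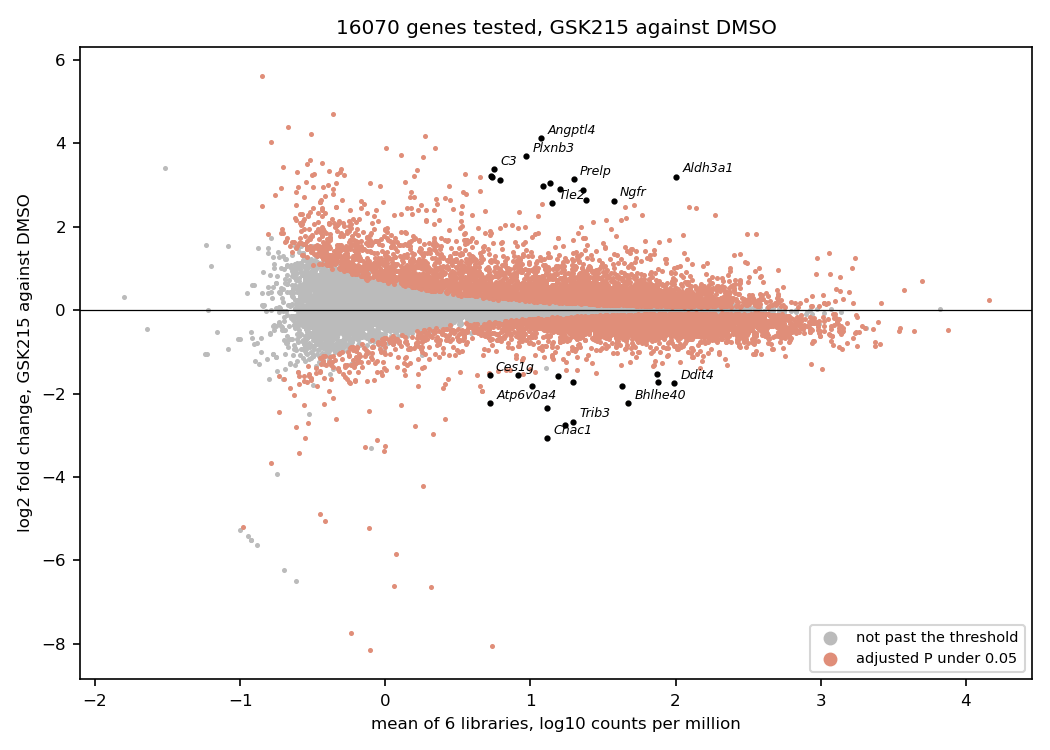
Mean level over the 6 libraries (log10 CPM, horizontal) and log2 fold change of GSK215 against DMSO (vertical) for the genes tested, with genes past the threshold in colour. Among the genes marked in black, the 15 largest rises and 15 largest falls at a mean of at least 5 CPM, the rises reached 4.13 (*Angptl4*) and the falls -3.07 (*Chac1*). The points below -4 include the small RNAs that were high only in DMSO replicate 2.

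*Ptk2*, the gene of the targeted kinase (chr15:73205102-73423280, minus strand in GRCm38), stood at 92.9, 95.4 and 97.7 CPM in DMSO and 77.6, 78.6 and 77.4 CPM with GSK215. The groups did not overlap, and the mRNA was 1.22-fold lower (log2 fold change -0.29, SE 0.036, adjusted *P* = 6.47e-09). In an exact two-sided permutation test on log2(CPM + 4) the same difference gave *P* = 0.10, the smallest value that 3 against 3 libraries allow. *Met*, the receptor of hepatocyte growth factor (chr6:17463800-17573980, plus strand), was at 239, 232 and 241 CPM in DMSO and 198, 182 and 182 CPM with GSK215. It too was lower in every treated library (log2 fold change -0.34, SE 0.033, adjusted *P* = 1.70e-11; exact permutation *P* = 0.10). Its ligand gene *Hgf* had at most 3 counts in any of the 6 libraries, and *Spint1*, an inhibitor of the proteases that activate HGF, had none, so neither was tested. *Nf2* transcripts were still counted, at 184, 179 and 178 CPM in DMSO and 155, 156 and 162 CPM with GSK215 (log2 fold change -0.19, SE 0.033, adjusted *P* = 3.95e-06, not past the threshold with library totals, adjusted *P* = 0.062). Counts over a whole gene cannot show whether an exon is missing, so they do not check the deletion.

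In the list of FAK and focal adhesion adaptors, 16 of 33 tested members rose and 9 fell (median 0.085), and with library totals 22 rose and 2 fell (median 0.21). The adaptors that rose most were *Tns1*, encoding tensin 1, which ties integrins to actin, and *Lims2*, encoding PINCH2. *Lims2*, whose exons overlap those of *Gpr17*, was at 0.136, 0.301 and 0.371 CPM in DMSO and 1.44, 1.39 and 1.53 CPM with GSK215 (log2 fold change 2.39, SE 0.36, adjusted *P* = 5.07e-07). At these DMSO levels *Lims2* could enter the test only through libraries where it was higher. *Tns1* was at 43.0, 44.8 and 41.8 CPM in DMSO and 234, 241 and 232 CPM with GSK215, a 5.45-fold rise (log2 fold change 2.45, SE 0.045, adjusted *P* = 5.53e-34). *Tgfb1i1*, encoding the paxillin relative HIC-5, rose 1.62-fold. No adaptor fell by as much as 2-fold, and the next to *Ptk2* was *Parvb*, encoding beta-parvin (log2 fold change -0.28, SE 0.044, adjusted *P* = 1.20e-06). A list of VHL and cereblon ubiquitin ligase subunits and of HIF genes was mostly lower by small amounts: 1 of 13 rose and 8 fell. These ligases are the ones most used by PROTACs in general, and the HIF genes are no subunits of them. The lowest were *Hif1a* (-0.33), whose protein VHL binds, and the cullin *Cul2* (-0.33). With library totals the count became 4 higher and 4 lower. The rise was that of *Epas1*, encoding the hypoxia-inducible factor HIF-2 alpha, a protein that VHL marks for degradation (log2 fold change 0.85, SE 0.11, adjusted *P* = 9.79e-09).

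The largest falls above 5 CPM included genes of the integrated stress response, in which eIF2 alpha kinases raise the translation of ATF4 and ATF4 in turn switches on genes for amino acid supply and redox balance. Of 18 tested members, 16 fell and 1 rose, with a median log2 fold change of -1.03 against 0.02 over all genes. *Chac1*, a glutathione-degrading enzyme and an ATF4 target, was at 23.3, 25.1 and 21.9 CPM in DMSO and 2.30, 2.99 and 2.96 CPM with GSK215. That is an 8.41-fold fall with no overlap (log2 fold change -3.07, SE 0.11, adjusted *P* = 5.95e-25). *Trib3*, a pseudokinase that feeds back on ATF4, went from 37.3, 33.5 and 32.0 CPM to 4.92, 5.18 and 5.87 CPM (log2 fold change -2.67, SE 0.081, adjusted *P* = 9.30e-27). *Atf3*, a stress-induced transcription factor, fell 3.83-fold (log2 fold change -1.94, SE 0.14, adjusted *P* = 8.98e-15). *Fgf21*, a secreted stress hormone, had 8, 5 and 9 counts in DMSO and 0, 1 and 0 counts with GSK215 (adjusted *P* = 3.58e-04). *Cebpb* was the member that rose (log2 fold change 0.52, SE 0.17, adjusted *P* = 0.00812), and its call was lost with DESeq2 (adjusted *P* = 0.066) and without either DMSO replicate 1 or GSK215 replicate 2.

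Genes of amino acid supply fell with it. All 11 tested genes of serine, glycine, proline and mitochondrial one-carbon synthesis were lower (median -0.98), with 5 of them at least 2-fold lower. *Aldh1l2*, a mitochondrial folate enzyme, went from 119, 118 and 112 CPM to 37.4, 32.7 and 36.4 CPM (log2 fold change -1.72, SE 0.051, adjusted *P* = 4.87e-27); some of its exons overlap those of *D10Wsu102e*, and the strand setting of the counting is not known. *Mthfd2*, the mitochondrial methylene-tetrahydrofolate dehydrogenase, went from 220.4, 208 and 211 CPM to 82.9, 78.2 and 81.7 CPM (log2 fold change -1.40, SE 0.036, adjusted *P* = 6.23e-29). *Cth*, which makes cysteine from cystathionine, was at 29.8, 31.6 and 28.2 CPM in DMSO and 10.8, 8.39 and 8.44 CPM with GSK215 (log2 fold change -1.71, SE 0.081, adjusted *P* = 1.47e-20). The cystine importer *Slc7a11* fell further, from 31.3, 29.8 and 29.7 CPM to 4.73, 4.81 and 4.00 CPM (log2 fold change -2.75, SE 0.080, adjusted *P* = 1.96e-27). Among the 9 tested amino acid transporters 6 fell, including the leucine and tryptophan carrier *Slc7a5* (-1.05) and the arginine carrier *Slc7a1* (-0.85), and 3 rose, none by as much as 2-fold. All 20 cytosolic aminoacyl-tRNA synthetases, which load tRNAs with amino acids, were lower, from -1.02 to -0.23. The lowest were *Cars* (-1.02) and *Mars* (-1.01), the enzymes for cysteine and methionine, and the exons of *Mars* overlap those of the stress gene *Ddit3*.

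ATF4 with C/EBP partners binds a composite element whose core can be written TGATGNAA. Promoters were read from RefSeq (GRCm38.p6) as 300 bases, from 250 before to 50 after the transcription start, and both strands were searched. The element was present in 7 of 16 members of the integrated stress response list with a promoter entry, or 43.8%, and in 2.78% of 10507 tested genes with an entry. The list names genes of this response, so its share describes how it was chosen and is no test of the falls. The pair below belongs to *Chac1* and *Trib3*, the largest falls of the list above 5 CPM, and is printed 5′ to 3′ on the gene's strand with the match in capitals. The *Chac1* window is chr2:119350992-119351291, plus strand, and the *Trib3* window is chr2:152344011-152344310, minus strand. In both, the letters lie on the reverse strand.
Chac1: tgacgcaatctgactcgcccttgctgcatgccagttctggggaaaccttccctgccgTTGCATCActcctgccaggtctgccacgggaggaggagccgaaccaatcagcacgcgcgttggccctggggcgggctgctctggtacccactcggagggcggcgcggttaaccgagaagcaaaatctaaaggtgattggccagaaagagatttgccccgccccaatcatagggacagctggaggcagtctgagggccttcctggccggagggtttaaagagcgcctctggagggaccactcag
Trib3: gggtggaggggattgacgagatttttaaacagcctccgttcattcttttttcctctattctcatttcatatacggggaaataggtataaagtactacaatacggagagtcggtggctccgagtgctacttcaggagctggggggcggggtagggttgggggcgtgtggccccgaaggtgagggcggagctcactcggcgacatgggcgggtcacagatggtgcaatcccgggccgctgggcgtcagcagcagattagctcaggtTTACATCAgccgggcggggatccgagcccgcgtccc
A match describes the letters in the window, and binding was not measured.

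**Figure D2:**
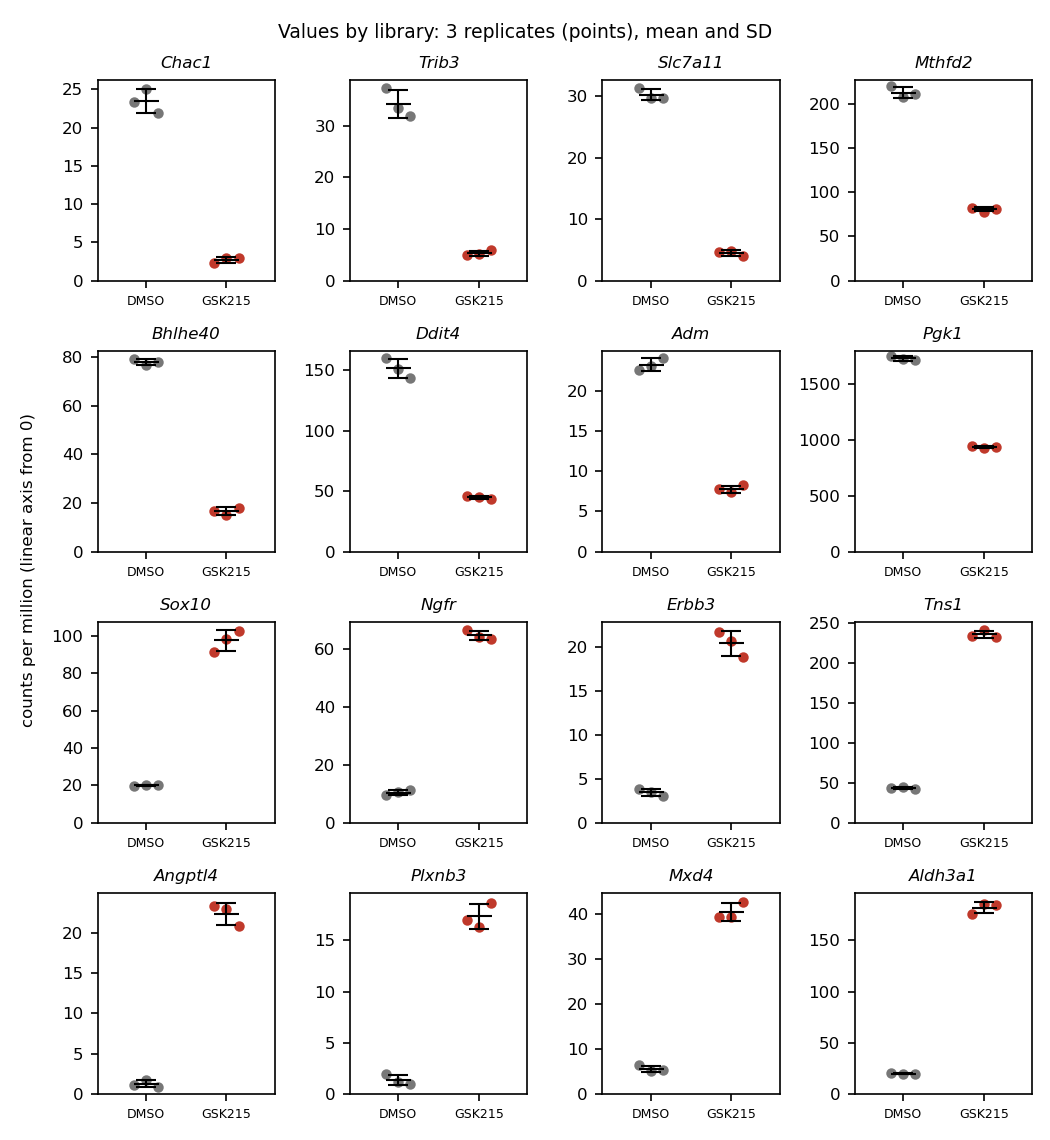
CPM of 16 genes (linear axes from 0) in the 3 DMSO and 3 GSK215 libraries, with points for libraries and the mean and SD in black. The top 2 rows hold genes that fell and the lower 2 rows genes that rose, and in none of the 16 do the libraries of the groups overlap.

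Targets of the hypoxia-inducible factors (HIFs), the transcription factors that adapt cells to low oxygen, fell as a group. Of 22 tested targets, 20 were lower and 2 higher (median -0.86), and 9 fell at least 2-fold. *Bhlhe40*, a transcriptional repressor of the clock and hypoxia response, went from 79.3, 76.9 and 78.0 CPM in DMSO to 16.8, 15.0 and 18.1 CPM with GSK215, a 4.68-fold fall (log2 fold change -2.23, SE 0.057, adjusted *P* = 6.23e-29). *Ddit4*, an inhibitor of mTORC1 that also responds to ATF4, went from 159.9, 151 and 144 CPM to 46.0, 45.1 and 43.8 CPM (log2 fold change -1.75, SE 0.050, adjusted *P* = 1.32e-27). The vasodilator peptide gene *Adm* was at 22.6, 23.1 and 24.1 CPM and then 7.75, 7.37 and 8.24 CPM (log2 fold change -1.58, SE 0.078, adjusted *P* = 5.83e-20), with each treated library far below the lowest control. *Ankrd37* fell 2.94-fold (log2 fold change -1.55, SE 0.13, adjusted *P* = 3.48e-13), and its exons overlap those of *Ufsp2* and *Lrp2bp*. The members that rose, *Pfkfb4* (0.22) and *Kdm3a* (0.098), did so by small amounts and lost their calls with DESeq2, without the low-count filter and without several single libraries. mRNA of the regulators did not move in one direction, since *Hif1a* was lower (-0.33) and *Epas1* higher. Glycolytic genes followed, with 16 of 19 lower and 2 higher (median -0.58). *Hk2*, encoding hexokinase 2, which commits glucose to the pathway, was 2.06-fold lower (log2 fold change -1.04, SE 0.037, adjusted *P* = 1.24e-24). *Pgk1*, phosphoglycerate kinase, went from 1755, 1724 and 1716 CPM to 947, 932 and 934 CPM (log2 fold change -0.89, SE 0.030, adjusted *P* = 5.48e-25), and *Ldha*, which makes lactate, fell by a similar size (log2 fold change -0.86, SE 0.032, adjusted *P* = 3.73e-24). Of the pair that rose, *Ldhb* did so 1.33-fold and *Aldoc* lost its call with DESeq2 (adjusted *P* = 0.068) and under other settings.

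The core of the hypoxia response element, ACGTG or GCGTG, was searched in the same windows on both strands. ACGTG was found in 14 of 18 HIF targets with an entry (77.8%) and in 29.1% of tested genes. GCGTG was found in 16 of 18 (88.9%) and in 55.5% of tested genes, so that short core is common. The genes were listed as HIF targets, so both shares describe the list and are no test of the falls. ACGTG is also part of the E-box CACGTG. The windows of *Ddit4* and *Ankrd37* are printed since both fell past 2-fold and hold both cores, at chr10:59951721-59952020, minus strand and chr8:45999801-46000100, minus strand. Capitals mark every match on either strand.
Ddit4: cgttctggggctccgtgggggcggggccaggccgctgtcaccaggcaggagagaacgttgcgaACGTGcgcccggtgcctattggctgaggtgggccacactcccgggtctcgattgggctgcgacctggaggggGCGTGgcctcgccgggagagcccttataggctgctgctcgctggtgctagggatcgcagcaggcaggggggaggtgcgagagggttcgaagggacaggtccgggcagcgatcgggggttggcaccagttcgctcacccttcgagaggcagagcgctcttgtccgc
Ankrd37: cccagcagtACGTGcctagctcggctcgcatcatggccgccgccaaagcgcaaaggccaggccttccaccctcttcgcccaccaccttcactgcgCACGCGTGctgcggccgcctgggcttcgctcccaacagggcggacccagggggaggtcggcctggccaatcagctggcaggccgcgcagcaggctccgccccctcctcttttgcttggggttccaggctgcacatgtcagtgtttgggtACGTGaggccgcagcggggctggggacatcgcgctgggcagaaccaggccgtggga
The *Ddit4* window held 2 matches and the *Ankrd37* window 4.

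**Figure D3:**
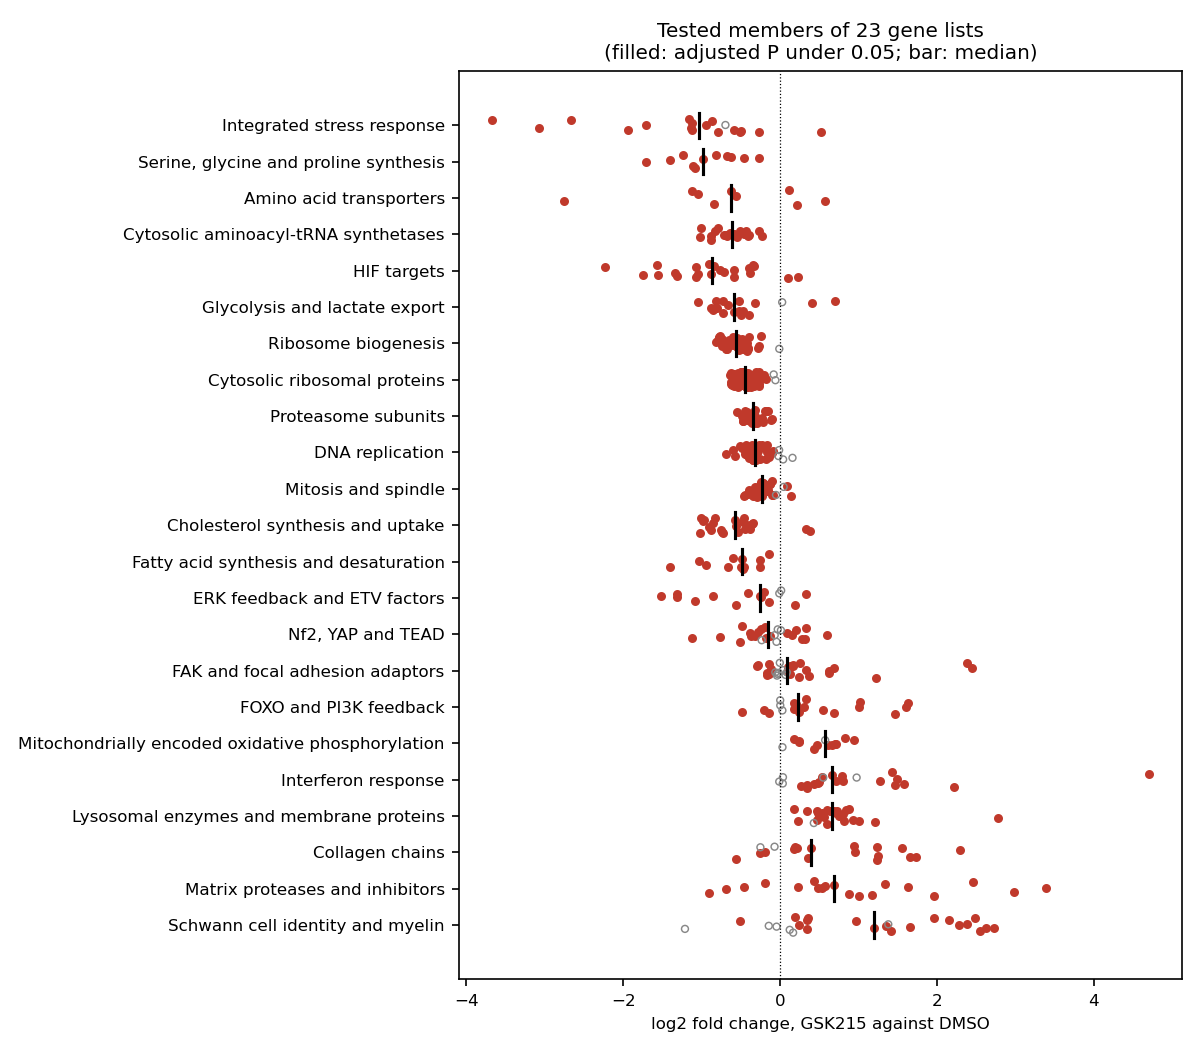
Log2 fold change of GSK215 against DMSO for the tested members of 23 gene lists, with filled points for members at an adjusted *P* under 0.05, open points for the others, and a bar at the median. Medians run from -1.03 in the integrated stress response to 1.19 in the list of SC identity and myelin genes.

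SC identity and myelin genes rose. Of 25 tested members of that list, 18 were higher and 1 lower (median 1.19), and 12 rose at least 2-fold. *Sox10* (chr15:79154908-79165240, minus strand) was at 19.7, 20.3 and 20.3 CPM in DMSO and 91.7, 98.5 and 103 CPM with GSK215, a 4.87-fold rise (log2 fold change 2.28, SE 0.063, adjusted *P* = 5.26e-28). *Ngfr*, the low-affinity neurotrophin receptor p75 that marks immature SCs, went from 9.63, 10.5 and 11.1 CPM to 66.3, 64.0 and 63.4 CPM (log2 fold change 2.63, SE 0.065, adjusted *P* = 2.45e-29). *Erbb3*, the neuregulin receptor that SCs need for survival and myelination, went from 3.89, 3.50 and 3.05 CPM to 21.7, 20.7 and 18.9 CPM (log2 fold change 2.55, SE 0.10, adjusted *P* = 5.07e-23). Every treated library was more than 4 times the highest control for each of these genes. *S100b*, a calcium-binding SC marker, had 1, 4 and 5 counts in DMSO and 10, 15 and 18 counts with GSK215 (adjusted *P* = 1.55e-04). It thus stayed near the limit of detection, where 3 counts equal 0.113 to 0.197 CPM. At these DMSO counts *S100b* could enter the test only through libraries where it was higher. The list did not move as a whole: the promyelinating factor *Egr2* missed the threshold (adjusted *P* = 0.0545), as did *Pou3f1*, *Dhh* and *Prx* (all named after their values were seen), and *Drp2*, a dystroglycan-complex protein of myelinating SCs, fell (log2 fold change -0.52, SE 0.14, adjusted *P* = 0.00251). The remaining 5 of 30 genes in the table were not tested, since none exceeded 7 counts in a library. The summed CPM of the 5 SC markers was 188 to 194 with GSK215. Genes of the repair SC, the state that follows nerve injury, were higher in 5 of 13 cases and lower in 3, and with library totals higher in 6 and lower in 1. The glial-line neurotrophic receptor *Gfra1* (0.98) and the ligand *Artn* (0.64) rose, and the macrophage growth factor *Csf1* fell (-0.26).

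**Figure D4:**
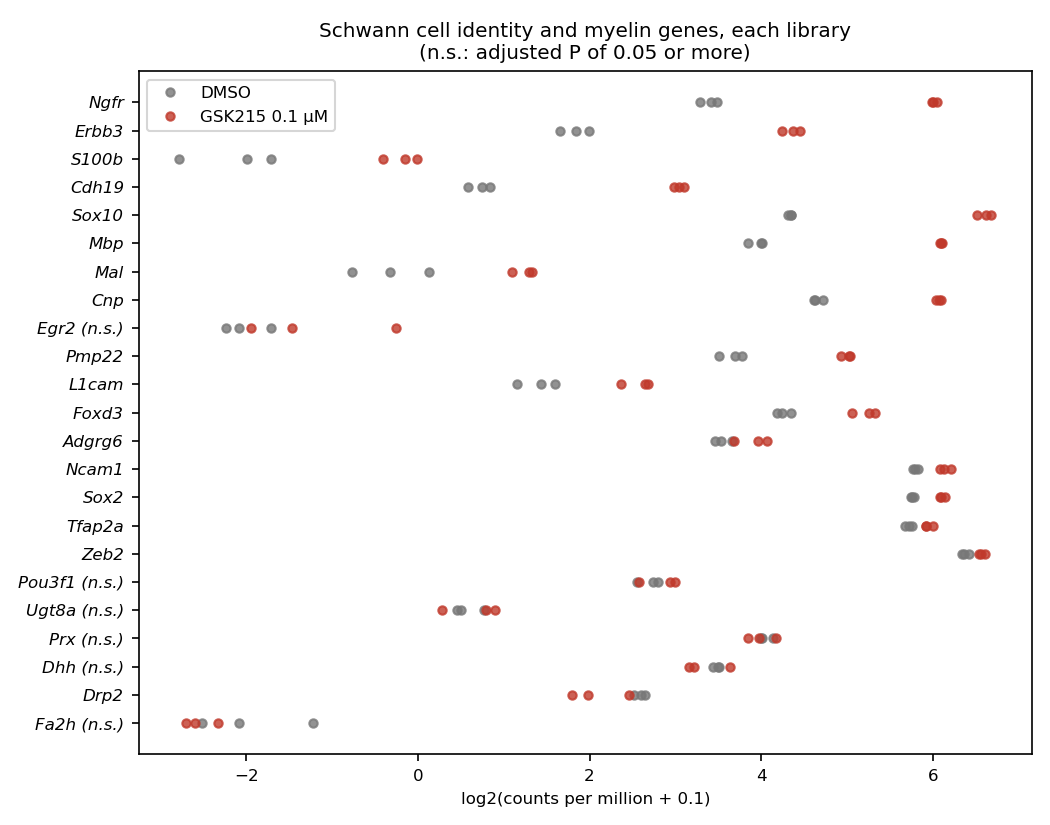
Levels of 23 tested SC identity and myelin genes, as log2(CPM + 0.1), in the 3 DMSO and 3 GSK215 libraries, ordered by fold change. From *Ngfr* down to *Cnp* all treated libraries lie above all controls, and genes marked n.s. did not pass the test.

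*Angptl4*, a secreted inhibitor of lipoprotein lipase and a PPAR target, had the largest rise of the genes named at a mean of at least 5 CPM, from 1.13, 1.73 and 0.906 CPM to 23.4, 23.0 and 20.8 CPM (log2 fold change 4.13, SE 0.13, adjusted *P* = 8.98e-26). *Cpt1a*, which admits fatty acids to mitochondria, rose 2.34-fold (log2 fold change 1.22, SE 0.034, adjusted *P* = 6.61e-28). In all, 8 of 11 tested PPAR targets and angiopoietin-like genes rose and 2 fell (median 0.28). The plexin *Plxnb3*, a semaphorin receptor of glia, went from 1.94, 1.20 and 0.948 CPM to 17.0, 16.3 and 18.7 CPM, a 12.9-fold rise (log2 fold change 3.69, SE 0.14, adjusted *P* = 2.75e-23). Complement *C3*, the central component of the complement cascade, rose 10.4-fold, and *Lcn2*, a siderophore-binding lipocalin of inflammation, rose 7.47-fold from 3.75, 3.87 and 3.63 CPM. *Apod*, a lipocalin that carries lipids in nerve, went from 2.71, 2.78 and 2.72 CPM to 23.4, 19.9 and 21.6 CPM (log2 fold change 2.98, SE 0.098, adjusted *P* = 1.26e-25). *Aldh3a1*, an aldehyde dehydrogenase, was at 20.2, 19.4 and 19.9 CPM in DMSO and 176, 186 and 184 CPM with GSK215 (log2 fold change 3.20, SE 0.050, adjusted *P* = 7.23e-36). Further genes among the 15 largest rises were the matrix genes *Fbln7* (3.22), *Dmp1* (3.18) and *Prelp* (3.15), the insulin-like growth factor binding protein *Igfbp5* (3.12), the purine enzyme *Xdh* (3.04), the phosphodiesterase *Gdpd2* (2.64) and the corepressor *Tle2* (2.57).

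Among the largest falls outside the stress lists, *Cdkn1a*, the CDK inhibitor p21, went from 15.7, 16.6 and 15.7 CPM to 3.74, 4.27 and 5.38 CPM (log2 fold change -1.82, SE 0.11, adjusted *P* = 7.99e-18). *Ier3*, an early response gene downstream of ERK, fell 2.87-fold (log2 fold change -1.52, SE 0.050, adjusted *P* = 1.56e-25). The vacuolar proton pump subunit *Atp6v0a4* (-2.23) fell too, and its exons overlap those of *D630045J12Rik*. The carboxylesterase *Ces1g* (-1.56) and the histone gene *Hist1h2af* (-2.34) belong to families of near-identical copies, so their counts are uncertain.

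Proteasome and ribosome genes were lower. All 31 proteasome subunits fell (median -0.35), as did 75 of 77 cytosolic ribosomal protein genes (median -0.44) and 33 of 34 genes of ribosome biogenesis (median -0.56), and none of the 3 lists had a member that rose. Log2 fold changes ran from -0.55 to -0.10 in the proteasome, from -0.63 to -0.060 among ribosomal proteins and from -0.81 to -0.010 in ribosome biogenesis. Nucleolin, *Ncl*, went from 3328, 3269 and 3247 CPM to 1851, 1880.4 and 1865 CPM (log2 fold change -0.81, SE 0.029, adjusted *P* = 1.36e-24), and nucleophosmin, *Npm1*, fell by a like amount (-0.77). *Rps29* (-0.63) and *Rpl38* (-0.63) were the lowest ribosomal protein genes, and genes of this family share sequence with many pseudogenes. *Myc*, which drives ribosome production, fell 1.52-fold (log2 fold change -0.60, SE 0.034, adjusted *P* = 2.93e-18). *Mxd4*, a MAX partner that opposes MYC, rose 7.35-fold, from 6.33, 5.04 and 5.23 CPM to 39.3, 39.3 and 42.7 CPM (log2 fold change 2.88, SE 0.084, adjusted *P* = 3.10e-27). Of the same family, *Mxd1* rose (0.76) and *Mxi1* fell (-0.47). Over the MYC network 3 genes rose and 6 fell (median -0.12, which becomes positive with library totals, where 3 rose and 3 fell).

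Of genes of DNA replication 36 of 40 fell and none rose (median -0.32), led by the ribonucleotide reductase subunit *Rrm2* (-0.69) and the helicase subunit *Mcm3* (-0.60). Mitotic genes followed with 31 of 35 lower and 2 higher (median -0.23), and no member of either list changed 2-fold. With library totals 29 replication genes fell and 3 rose, and 20 mitotic genes fell and 3 rose. All 3 D-type cyclins were lower: *Ccnd1* went from 613, 599 and 617 CPM to 328, 313 and 325 CPM (log2 fold change -0.92, SE 0.030, adjusted *P* = 9.21e-26), *Ccnd2* fell 1.60-fold and *Ccnd3* 1.44-fold. Inhibitors of the cell cycle split, since *Cdkn1a* fell while the CDK4 inhibitor genes *Cdkn2c* (0.32) and *Cdkn2a* (0.31) and the pocket protein genes *Rb1* (0.36) and *Rbl2* (0.42) rose. The list of p53 and its targets was also divided, with 6 of 19 higher and 8 lower (median -0.052, positive with library totals, where 7 rose and 5 fell). That list did not include *Cdkn1a*, which was counted with the cyclins and CDK inhibitors. *Trp53inp1*, a stress protein that promotes autophagy, rose 5.11-fold (log2 fold change 2.35, SE 0.12, adjusted *P* = 7.57e-20) and the kinase gene *Plk2* fell 2.04-fold (log2 fold change -1.03, SE 0.038, adjusted *P* = 3.97e-24). In the BCL2 family 4 of 11 rose and 3 fell (median -0.054, positive with library totals and without GSK215 replicate 1). Of these, 2 rose and 1 fell at least 2-fold. *Bmf*, a BH3-only activator of apoptosis released from the cytoskeleton, rose from 3.66, 4.17 and 3.87 CPM to 18.9, 19.8 and 17.3 CPM (log2 fold change 2.25, SE 0.11, adjusted *P* = 1.97e-20).

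FOXO factors switch genes on when PI3K signalling is low. In a list of FOXO factors, their targets and PI3K feedback genes 14 of 20 rose and 3 fell (median 0.23), and with library totals 17 rose and 1 fell. *Txnip*, an inhibitor of glucose uptake, went from 25.8, 26.7 and 26.1 CPM to 72.5, 71.5 and 73.8 CPM (log2 fold change 1.47, SE 0.049, adjusted *P* = 1.58e-25). *Fbxo32*, the ubiquitin ligase atrogin-1, rose 3.04-fold (log2 fold change 1.60, SE 0.065, adjusted *P* = 9.54e-23), and *Pik3ip1*, a negative regulator of PI3K, rose 3.09-fold. Lysosomal genes rose nearly without exception: 25 of 26 were higher and none lower (median 0.66). *Gpnmb*, a lysosome-associated glycoprotein, was the largest rise (log2 fold change 2.78, SE 0.17, adjusted *P* = 9.11e-17), and the hexosaminidase *Hexa* went from 52.2, 52.5 and 50.1 CPM to 119, 118 and 124 CPM (log2 fold change 1.22, SE 0.042, adjusted *P* = 6.55e-25). Among subunits of the V-ATPase, the pump that acidifies lysosomes, 10 of the 15 listed rose and 1 fell (median 0.28). The one that fell was *Atp6v1a* (-0.089), which changes sign with library totals, and the subunit *Atp6v0a4*, not in the list, fell (-2.23). Autophagy genes rose in 14 of 23 cases and fell in 4 (18 and 1 with library totals), with the ATG8 relatives *Gabarap* (0.80), *Map1lc3a* (0.73) and *Map1lc3b* (0.64) in front and *Tfeb*, the regulator of lysosomal genes, lower (-0.33; not past the threshold with library totals or without DMSO replicate 1 or GSK215 replicate 2). Summed macrophage markers were 3.71 to 4.10 CPM in DMSO and 6.20 to 7.88 CPM with GSK215. Most of the sum was the lysosomal gene *Cd68*, at 2.94, 3.53 and 3.58 CPM and 6.70, 4.91 and 6.27 CPM, while *Ptprc* had 0 to 1 counts in a library and *Csf1r* was not past the threshold (adjusted *P* = 0.0962). Their part in these results was not tested.

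Mitochondrially encoded subunits of the respiratory chain were higher in 11 of 13 cases and lower in none (median 0.57), with *mt-Cytb* at 3769, 3806 and 3784 CPM in DMSO and 6172, 5809.6 and 6526 CPM with GSK215. These are the genes whose larger share of counts in the GSK215 libraries is given above. Nuclear encoded subunits did not share that direction: 8 of 48 rose and 21 fell (median -0.036), and with library totals 23 rose and 13 fell. NRF2 targets, which defend against oxidants, were also divided, with 6 of 19 higher and 11 lower (with library totals 7 and 5). The largest rise of the list was that of *Aldh3a1* (3.20), given above. *Gsta4* (0.99) and *Gstm1* (0.76), glutathione transferases, and *Nqo1* (0.69) rose, whereas malic enzyme *Me1* (-0.35) and glutathione reductase *Gsr* (-0.25) fell. Endoplasmic reticulum chaperones rose in 8 of 20 cases and fell in 9 (median -0.072, positive with library totals), with *Herpud1*, a component of ER-associated degradation, 2.41-fold lower (log2 fold change -1.27, SE 0.057, adjusted *P* = 3.45e-21) and *Hspa5*, the chaperone BiP, also lower (-0.45). Heat shock chaperones fell in 9 of 16 cases and rose in 3. The mitochondrial chaperonin *Hspd1* went from 1853, 1839 and 1826 CPM to 1002, 946 and 966 CPM (log2 fold change -0.92, SE 0.030, adjusted *P* = 1.08e-25), though its exons overlap those of its partner *Hspe1*.

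Genes of the ERK feedback and ETV list fell in 11 of 15 cases and rose in 2 (median -0.26). With library totals 9 fell and 3 rose (median -0.14), and ERK activity itself was not measured. The ETS factors *Etv4* and *Etv5*, which ERK induces, fell by a similar size. *Etv4* went from 102, 103 and 99.7 CPM to 40.2, 40.0 and 42.6 CPM (log2 fold change -1.31, SE 0.046, adjusted *P* = 7.72e-25) and *Etv5* from 58.8, 59.0 and 62.3 CPM to 25.0, 23.8 and 23.8 CPM (log2 fold change -1.31, SE 0.052, adjusted *P* = 5.74e-23). *Spry4*, a feedback inhibitor of receptor signalling, fell 2.12-fold (log2 fold change -1.08, SE 0.15, adjusted *P* = 9.69e-08), whereas its relative *Spry1* rose (0.33). Immediate-early genes were divided, with 5 of 15 higher and 7 lower. *Maff* fell from 42.5, 39.1 and 44.4 CPM to 14.7, 15.0 and 14.4 CPM (log2 fold change -1.51, SE 0.064, adjusted *P* = 3.74e-22), and *Jun* fell 1.46-fold (log2 fold change -0.54, SE 0.044, adjusted *P* = 1.10e-13). *Egr1*, which ERK induces too, rose 2.33-fold, from 8.68, 8.50 and 10.2 CPM to 21.9, 20.7 and 21.3 CPM (log2 fold change 1.22, SE 0.080, adjusted *P* = 3.01e-16). YAP and TEAD are the transcription factors that merlin restrains through the Hippo kinases. In a list of these factors, *Nf2*, Hippo pathway members and targets, 7 of 24 rose and 12 fell (median -0.15), and with library totals 8 rose and 9 fell. The commonly used target *Ankrd1* fell 2.17-fold, from 182, 174 and 179 CPM to 80.6, 84.0 and 81.5 CPM (log2 fold change -1.12, SE 0.039, adjusted *P* = 6.75e-25), *Cyr61* fell 1.71-fold (log2 fold change -0.77, SE 0.031, adjusted *P* = 1.01e-22) and *Ctgf* 1.41-fold (log2 fold change -0.49, SE 0.10, adjusted *P* = 7.97e-05). *Nuak2* and the factors *Tead2* and *Tead3* had log2 fold changes of 0.60, 0.31 and 0.34. Genes driven by SRF, which senses free actin, were split 7 higher to 7 lower of 17 (median -0.088, positive with library totals), with *Actb* (-0.28) and *Tagln2* (-0.72) lower and *Tpm2* (1.00) higher.

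Receptors rose more often than they fell. Of 15 tested genes of HGF, MET and other receptor tyrosine kinases 8 were higher and 3 lower. *Pdgfrb* went from 21.4, 25.7 and 22.5 CPM to 66.4, 67.1 and 66.7 CPM (log2 fold change 1.52, SE 0.058, adjusted *P* = 1.50e-23), *Fgfr1* rose 2.65-fold (log2 fold change 1.41, SE 0.041, adjusted *P* = 2.86e-27), and *Met* and the collagen receptor *Ddr2* (-0.39) fell. Eph receptors and ephrins, which guide contact between cells, rose in 9 of 15 cases, and *Epha2* was the one that fell (log2 fold change -0.38, SE 0.039, adjusted *P* = 6.75e-11). In the TGF-beta and BMP list 8 of 23 rose and 6 fell. *Tgfb1* rose 2.19-fold (log2 fold change 1.13, SE 0.095, adjusted *P* = 4.02e-13), and the BMP-induced genes *Id2* (0.73) and *Id3* (0.80) rose as well, while *Smad7*, a feedback inhibitor of TGF-beta, fell (log2 fold change -0.81, SE 0.11, adjusted *P* = 5.11e-08).

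Matrix genes rose in most cases. Of 19 tested matrix proteases and their inhibitors 15 were higher and 4 lower (median 0.69). The aggrecanases *Adamts4*, from 38.8, 36.0 and 38.8 CPM to 207, 211 and 207 CPM (log2 fold change 2.46, SE 0.043, adjusted *P* = 1.01e-34), and *Adamts5*, from 14.5, 14.1 and 15.7 CPM to 63.8, 54.8 and 53.9 CPM (log2 fold change 1.96, SE 0.065, adjusted *P* = 1.49e-25), rose, and the exons of *Adamts4* overlap those of another counted gene. The gelatinase *Mmp9* rose 7.91-fold to 3.94, 5.66 and 5.08 CPM. The inhibitor *Timp1* fell (-0.69), as did the urokinase receptor *Plaur* (-0.91). Collagen chains rose in 14 of 19 cases and fell in 3 (median 0.40), with *Col6a1* going from 12.3, 13.4 and 11.8 CPM to 36.0, 37.4 and 37.0 CPM (log2 fold change 1.55, SE 0.069, adjusted *P* = 1.63e-21) and the anchoring fibril chain *Col7a1* lower (-0.56). Integrin and laminin chains rose in 14 of 24 cases and fell in 3 (median 0.13; 17 and 1 with library totals). *Itga2*, a collagen-binding chain, rose 5.86-fold (log2 fold change 2.55, SE 0.24, adjusted *P* = 9.64e-12) and *Itgb3* 2.56-fold (log2 fold change 1.36, SE 0.16, adjusted *P* = 4.28e-09), both from low levels. The summed level of 5 fibroblast markers, most of it *Col1a1* (0.19), was 395 to 414 CPM in DMSO and 469.8 to 476 CPM with GSK215, with *Lum* at 0 counts in all 6 libraries. Of these markers *Pdgfra*, a growth factor receptor, went from 12.0, 13.4 and 11.7 CPM to 24.0, 27.9 and 27.1 CPM (log2 fold change 1.09, SE 0.073, adjusted *P* = 6.09e-16). Their part in the matrix results was not tested.

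Interferon-response genes were higher in 18 of 23 tested cases and lower in none (median 0.66). *Mx1*, an antiviral GTPase, had 1, 1 and 0 counts in DMSO and 10, 15 and 22 counts with GSK215. With so few DMSO counts, *Mx1* could pass the low-count filter only through libraries where it was higher. Its rise therefore adds no support, though the list count includes it. The guanylate-binding protein *Gbp2* went from 1.90, 1.58 and 1.65 CPM to 4.60, 4.91 and 4.79 CPM (log2 fold change 1.48, SE 0.19, adjusted *P* = 1.95e-08). Genes of MHC class I presentation rose in 7 of 11 cases and fell in 1. The loading factor *Tapbp* went from 114, 115 and 118 CPM to 214, 206 and 212 CPM (log2 fold change 0.86, SE 0.034, adjusted *P* = 2.32e-23), the transporter *Tap2* rose 1.73-fold, and *H2-K1* itself was lower (-0.18; not past the threshold with library totals). In the NF-kB and inflammasome list 9 of 18 rose and 3 fell. The chemokine genes *Ccl2*, from 27.1, 26.2 and 27.9 CPM to 70.2, 68.8 and 70.7 CPM (log2 fold change 1.37, SE 0.053, adjusted *P* = 2.71e-23), and *Cxcl5* (log2 fold change 1.73, SE 0.072, adjusted *P* = 2.03e-22) rose, whereas *Nfkb2* (-0.52) and *Tnfaip3* (-0.33), both feedback targets of the pathway, fell. The macrophage marker sum given above, which is mostly *Cd68*, was also higher with GSK215, and its part in these results was not tested.

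Cholesterol and fatty acid synthesis, which SREBP factors control, fell. Of 23 tested genes of cholesterol synthesis and uptake 21 were lower and 2 higher (median -0.57). *Stard4*, which carries sterol between membranes, went from 68.0, 66.2 and 67.2 CPM to 33.1, 30.3 and 35.3 CPM (log2 fold change -1.03, SE 0.050, adjusted *P* = 2.51e-20), and lanosterol synthase, *Lss*, fell 2.01-fold (log2 fold change -1.01, SE 0.043, adjusted *P* = 6.63e-22). *Tm7sf2* (0.38; its exons overlap those of *Vps51*) and *Ebp* (0.33), both enzymes of the late steps, rose. All 12 genes of fatty acid synthesis and desaturation were lower (median -0.49), with the desaturase *Scd2* going from 1481, 1472 and 1485 CPM to 572, 553 and 545 CPM (log2 fold change -1.41, SE 0.031, adjusted *P* = 3.25e-31) and *Scd1* falling 2.04-fold. A sterol regulatory element written as TCACNCCAC was found in 1 of 16 cholesterol genes with a promoter entry (6.25%) and in 1.34% of tested genes. That gene was *Hmgcs1*, the synthase that precedes HMG-CoA reductase, named here after its values were seen. It stood at 142, 140.0 and 144 CPM in DMSO and 78.6, 76.1 and 77.6 CPM with GSK215. Its window (chr13:119690101-119690400, plus strand) is printed with the match in capitals.
Hmgcs1: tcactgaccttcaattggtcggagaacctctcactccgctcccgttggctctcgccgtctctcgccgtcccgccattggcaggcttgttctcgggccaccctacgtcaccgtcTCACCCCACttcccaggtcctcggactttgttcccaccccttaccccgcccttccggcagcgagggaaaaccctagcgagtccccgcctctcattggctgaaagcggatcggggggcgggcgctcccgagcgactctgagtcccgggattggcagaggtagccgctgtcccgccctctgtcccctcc
In the other 15 windows these letters were not present.

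GSK215 and BSJ-04-0146 were compared directly at 0.1 µM and 24 h, the one pair of PROTACs in the series with the same dose and time. Fold changes of either compound from DMSO share the same 3 control libraries, so the direct test between their own libraries was used, and values in parentheses in the comparison of these compounds are log2 differences, GSK215 minus BSJ-04-0146. It called 3615 of 16070 genes (22.5%), 1588 higher with GSK215 (9.88%) and 2027 lower (12.6%). Differences were smaller than those from DMSO, with a median size of 0.22 among genes called, and 76 genes differed at least 2-fold, 40 higher and 36 lower. *Ptk2* mRNA was not called different between the compounds, with 81.0, 80.1 and 78.1 CPM for BSJ-04-0146 (log2 difference -0.035, 95% confidence interval -0.11 to 0.042, adjusted *P* = 0.579). *Sox10* was likewise not called, with 90.8, 96.9 and 105 CPM for BSJ-04-0146 (log2 difference 0.0042, SE 0.054, adjusted *P* = 0.970, 95% confidence interval -0.11 to 0.11), nor was *Chac1* (log2 difference -0.17, SE 0.17, adjusted *P* = 0.527, interval -0.51 to 0.17). *Met* was less reduced by GSK215, with 159, 149 and 153 CPM for BSJ-04-0146 (log2 difference 0.28, SE 0.035, adjusted *P* = 6.91e-08).

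Cholesterol genes differed between the compounds. Of them, 20 of the 23 tested were lower with GSK215 than with BSJ-04-0146 and 0 higher, with a median difference of -0.55. *Fdps*, farnesyl diphosphate synthase, was at 94.4, 90.4 and 92.7 CPM in DMSO, 47.8, 47.6 and 46.2 CPM with GSK215 and 107, 102 and 83.5 CPM with BSJ-04-0146 (log2 difference -1.05, SE 0.059, adjusted *P* = 1.38e-16). *Insig1*, the sterol sensor that holds SREBP in the endoplasmic reticulum and is itself an SREBP target, was at 126, 125 and 126 CPM, 69.6, 69.7 and 68.4 CPM and 143, 144 and 142 CPM (log2 difference -1.04, SE 0.036, adjusted *P* = 5.21e-23). For both genes every GSK215 library lay far below every library of DMSO and BSJ-04-0146. *Tm7sf2* rose in both and less with GSK215, at 9.65, 11.8 and 11.9 CPM against 28.6, 25.9 and 24.1 CPM (log2 difference -1.22, SE 0.085, adjusted *P* = 3.83e-14). *Abca1*, which exports cholesterol from the cell, differed the other way, at 2.26, 2.74 and 2.27 CPM in DMSO, 7.68, 6.57 and 7.01 CPM with GSK215 and 3.65, 2.76 and 2.60 CPM with BSJ-04-0146 (log2 difference 1.23, SE 0.17, adjusted *P* = 7.48e-07).

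Genes of the ERK feedback and ETV list were lower with GSK215 in 8 of 15 cases and higher in 1, with *Etv4* at 69.0, 71.0 and 71.2 CPM for BSJ-04-0146 (log2 difference -0.78, SE 0.049, adjusted *P* = 2.12e-15) and *Etv5* at 38.1, 40.2 and 42.0 CPM (log2 difference -0.73, SE 0.057, adjusted *P* = 1.15e-12). Matrix genes tended the other way. Integrin and laminin chains were higher with GSK215 in 12 of 24 cases and lower in 1, collagen chains in 9 and 1 of 19, and matrix proteases and inhibitors in 10 and 0 of 19. *Col12a1*, a fibril-associated collagen, was at 35.5, 37.9 and 34.6 CPM with GSK215 and 20.0, 16.2 and 17.1 CPM with BSJ-04-0146 (log2 difference 1.02, SE 0.076, adjusted *P* = 2.74e-13). *Prelp*, a matrix proteoglycan, was higher as well (log2 difference 0.97, SE 0.079, adjusted *P* = 3.78e-12), as were *Adamts8* (1.02), *Lama2* (0.80), complement *C3* (0.78), the ion exchanger *Slc24a3* (0.92) and the immediate-early factor *Egr1* (log2 difference 0.87, SE 0.081, adjusted *P* = 1.50e-10). Lower with GSK215 were the oxidoreductase *Nqo1*, an NRF2 target (log2 difference -1.07, SE 0.17, adjusted *P* = 5.93e-06), *Gpnmb* (-1.07), the R-spondin receptor *Lgr6* (-1.07), *Tnfaip2* (-0.94) and *Coro2a* (-0.90). Of the NRF2 targets 13 of 19 were lower and 1 higher.

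**Figure D5:**
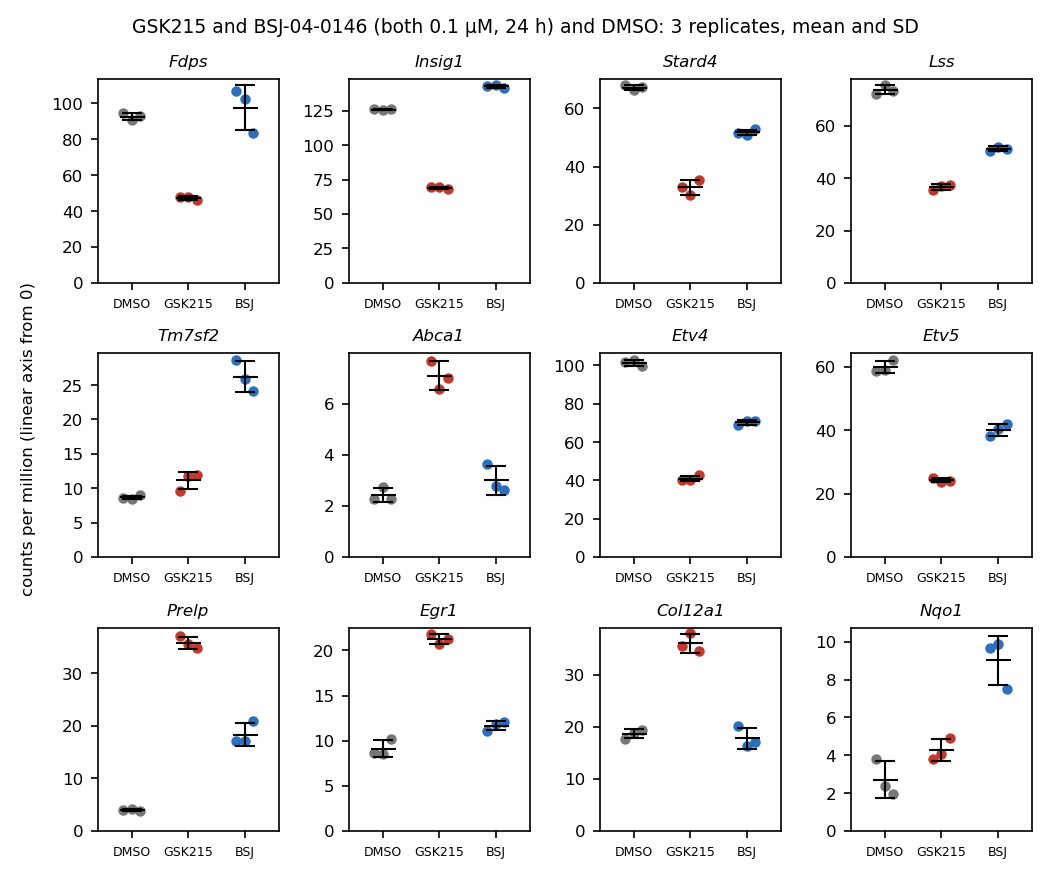
CPM of 12 genes (linear axes from 0) in the DMSO, GSK215 and BSJ-04-0146 libraries (BSJ on the axes), with points for libraries and the mean and SD in black. *Fdps* and *Insig1* are lower with GSK215 than in the other groups, and *Abca1*, *Egr1* and *Col12a1* are higher with GSK215 than in the other groups.

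Several large families differed by small median amounts. Of the 77 ribosomal protein genes 73 were lower with GSK215 and none higher (median difference -0.22), as were 32 of 48 nuclear encoded respiratory chain genes (-0.16), 22 of 31 proteasome subunits (-0.12) and 12 of 15 V-ATPase subunits (-0.24). Endoplasmic reticulum chaperones were higher in 13 of 20 cases and lower in none (0.17). Of 23 interferon genes 1 was higher and 1 lower, against the background of 22.5% of genes. HIF targets were higher in 2 and lower in 7 of 22 cases, with *Ddit4* at 63.6, 69.1 and 66.9 CPM for BSJ-04-0146 and thus higher than with GSK215 (log2 difference -0.57, SE 0.055, adjusted *P* = 3.89e-10).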

How the data were processed

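RNA of MS03 cells was sequenced after poly(A) selection. The submitters' processing notes name Trimmomatic 0.36, STAR 2.5.2b, featureCounts, Subread 1.5.2 and the build GRCm38. The annotation release and strand setting are not given in the sources used here. The authors deposited raw counts per Ensembl gene, not normalized, for 49315 genes in 24 libraries. The number in each column name gave its library, as numbered in the labels.

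The counts were fitted by edgeR 4.0.16 under R 4.3.3 (TMM, filterByExpr, glmQLFit and glmQLFTest) over all 24 libraries with 8 group coefficients and 16 residual degrees of freedom. *P* values were two-sided and Benjamini-Hochberg adjusted over 16070 genes, with a threshold of 0.05. The common coefficient of biological variation was 0.034, confidence intervals come from the fit and include the spread between libraries, and floors of 3 counts cover counting error only. The procedure was tested on simulated data. Replicates differed by more than counting noise (chi-square per degree of freedom 1.73 to 2.54).

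Genes named in the text were *Ptk2*, *Met*, *Nf2*, *Sox10*, *Hgf* and *Spint1*, the 15 largest rises and falls past the threshold at a mean of at least 5 CPM without overlap of libraries and without predicted gene names, up to 4 rises and 4 falls per list, and the 8 largest differences each way from BSJ-04-0146 by the same limits. The 44 lists and all rules were chosen with earlier results of these data known. They held 996 genes, of which 939 were tested, 56 were too low (at most 14 counts in any of the 6 libraries) and 1 was not analysed here. Exons of 51 of the 300 named genes overlap those of another counted gene in GENCODE M21. Alternatives were DESeq2 1.42.0, limma-trend (limma 3.58.1) on log2(CPM + 4), library totals, no filter, a replicate block, the 6 libraries alone, each library left out and a minimum of 2-fold. Results for some genes of these lists are not reported here. Groups of 3 are too small for a test of outlying libraries.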

Additional observations from a re-analysis of the deposited data

How the results depend on the processing

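The count of genes changed against DMSO was 8284 with DESeq2, 8866 with limma-trend, 8496 without a filter, 8911 with the 6 libraries alone and 9057 with library totals, and 8100 to 8227 with 1 library left out. The count of genes different from BSJ-04-0146 ran from 3165 to 4102 under the same settings and from 2574 to 3389 with 1 library left out. A minimum of 2-fold left 1144 and 76 genes, by construction. Replicate numbers did not pair the samples: deviations of same-numbered GSK215 and DMSO libraries correlated at 0.016, 0.0095 and 0.010. Each GSK215 library correlated best with the DMSO library of its own number, a hint from the data and not the design. Against BSJ-04-0146 the same-numbered values were 0.0071, -0.0033 and -0.015, and only GSK215 replicate 1 correlated best with its own number. With the replicate block the counts were 8721 and 3552.

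Of 298 named genes that were tested, 30 lost their call under at least 1 alternative and 3 changed sign, all with library totals, where their log2 fold changes from DMSO were positive: *Atp6v1a* (0.033), *Axl* (0.032) and *Lamc1* (0.0072). Library totals also turned the median of 6 lists positive (MYC network, nuclear encoded oxidative phosphorylation, p53 targets, BCL2 family, SRF-driven genes and ER chaperones). The cause was not tested. Depth limits genes of a few counts, such as *S100b*, *Fgf21* and *Mx1*.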
